A study of Mus musculus with 12 samples.

Results

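The genes examined here make bile acids in the hepatocyte or carry them into it from the portal blood. They are Cyp7a1, Cyp8b1, Cyp27a1, Cyp7b1, Hsd3b7, Akr1d1, Baat, Slc10a1, Slco1b2 and Slco1a1, found by symbol, and all 10 were present among the 11791 genes of the deposited liver table. RNA of mouse liver was sequenced in 12 pools of 2 males each, 4 pools in each of 3 groups. All males were 10 weeks old and were fed for 3 weeks with the MCD diet, which lacks methionine and choline and leads to fat accumulation and inflammation in mouse liver. All groups carried Lyzs-Cre, a Cre recombinase at the lysozyme 2 locus that is active in myeloid cells, so no group was free of Cre or of the diet. The control group had no further treatment in its labels. The KO group carried in addition a knockout of p38γ and p38δ, 2 stress-activated kinases, named p38g/d in its labels. The anti-Ly6G group had the control genotype and received an antibody against Ly6G, a neutrophil surface protein (the titles of its samples read GR1, the source names Ly6G). The strain label was C57BL/6 throughout. The origin of the mitochondria was labelled C57 for all control pools and KO 1 and 2, and NZB for KO 3 and 4 and all anti-Ly6G pools. The difference between anti-Ly6G and control therefore cannot be told apart from a difference between the mitochondria labels.

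Bile acids are made from cholesterol by hepatocytes. In the classic pathway, CYP7A1 adds the first hydroxyl group and sets the rate, and CYP8B1 adds the hydroxyl group that distinguishes cholic acid. In the acidic pathway, CYP27A1 and CYP7B1 act on the side chain and the ring. HSD3B7 and AKR1D1 change the ring in both pathways, BAAT joins the product to taurine or glycine, and NTCP (Slc10a1) and the OATP carriers (Slco genes) return bile acids and other organic anions from blood to the hepatocyte.

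The anti-Ly6G livers had more mRNA of both OATP importers among the 10 genes. Against control, Slco1b2 was up by 71.4% and Slco1a1 by 77.5%, while the bile salt importer Slc10a1 fell by 22.8%. In synthesis, Cyp7b1 and Hsd3b7 rose while Cyp27a1 and Akr1d1 fell, so that 7 of the 10 genes passed the test in this comparison, where 30.4% of all genes passed. With the mitochondria label as a covariate 3 of the 7 passed (Cyp7b1, Hsd3b7 and Slco1b2). In KO livers Slc10a1 fell by 28.8% against control and no other member passed, where 1.12% of all genes did. This call of Slc10a1 did not hold with the label as a covariate (limma adjusted p = 0.116). It held in only 2 of the 8 fits that left out a pool. Cyp8b1 in KO exceeded its anti-Ly6G level by 69.5%. Values are the deposited normalised signal, in which reads are scaled to the size of each library, and tests are limma-trend on log2(signal + 0.5) with Benjamini-Hochberg adjustment over all 11791 genes and a threshold of 0.05.

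Recovered depth was 13.1 to 22.3 M reads per library, and members were covered by 403 (Slco1a1) to 20054 reads (Cyp8b1) in a library. Pools of a group correlated at 0.977 to 0.991 (Pearson, log2 signal across genes, which are not independent replicates) and differed by more than sampling noise, with a chi-square of 9.61 to 63.0 per gene. Mapk12, which encodes p38γ, ranged from 1.75 to 2.71 in control pools, from 1.63 to 3.06 in KO pools and from 1.54 to 1.86 in anti-Ly6G pools. No gene of the deposited table bears the name Mapk13. A myeloid deletion is not tested by the level in whole liver. All 7 measured hepatocyte markers were present, Alb at 70390 to 107279, and none passed the test in any comparison. Their summed signal was 105496 to 122121 in control, 96771 to 125091 in KO and 103751 to 140192 in anti-Ly6G. In whole tissue, fewer cells of a type and less RNA per cell cannot be told apart.

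The order of levels in control, as signal per kilobase of annotated exon, was led by Cyp8b1 at 312 ± 57.5 (SD, n = 4) and Slc10a1 at 217 ± 13.4. Hsd3b7 followed at 133 ± 10.9. Cyp27a1 (98.1 ± 9.10), Slco1b2 (88.1 ± 5.84) and Baat (84.5 ± 6.60) came next, each differing from its neighbour in the order by less than the sum of their SDs. Akr1d1 stood at 44.1 ± 1.97. Cyp7b1 (17.8 ± 1.32) and Cyp7a1 (11.9 ± 5.25) also differed by less than the sum of their SDs, and Slco1a1 was lowest at 4.92 ± 0.374. Hsd3b7 shares most of its sequence with an overlapping annotated gene, Gm49388, and 43.7% of its 25-base words occur in no other gene. An antisense gene, 9430064I24Rik, also overlaps its exons, so all values of Hsd3b7 are uncertain. In Slco1a1 93.6% of the words were unique, the rest being shared with Slco1a5, Slco1a4 and Slco1a6, and in the other 8 members at least 96.4%.

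**Figure D1:**
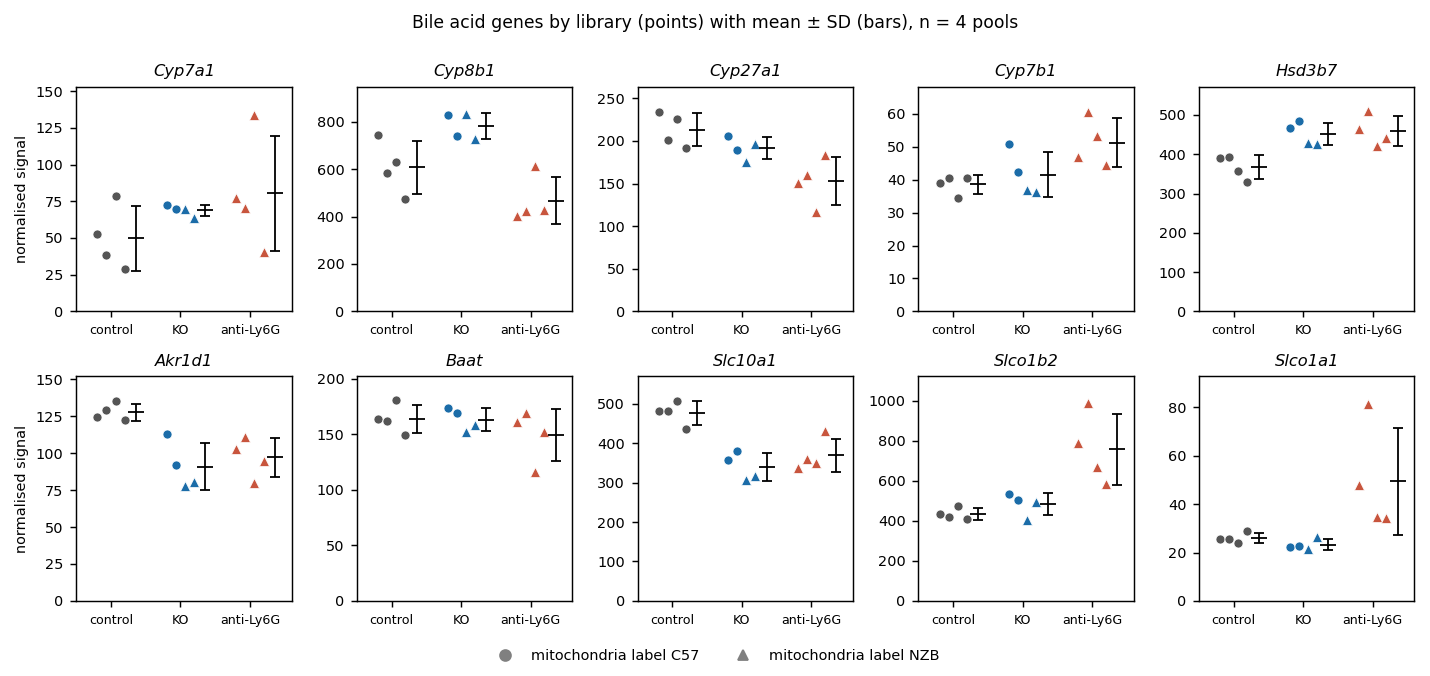
Normalised signal (y axis, from 0) of the 10 genes in each library, grouped as control, KO and anti-Ly6G. Circles are pools with the mitochondria label C57 and triangles those with NZB, and the bar beside each group is its mean ± SD over 4 pools. Slc10a1 and Akr1d1 lie lower in both other groups than in every control pool, and Slco1b2 and Slco1a1 lie higher in every anti-Ly6G pool.

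Cyp7a1 (ENSMUSG00000028240, GRCm38 chromosome 4, 6265612 to 6275633, minus strand), the rate-limiting enzyme of the classic pathway, varied most of the 10 genes between control pools and between anti-Ly6G pools, and least between KO pools. Its signal was 52.9, 38.2, 78.9 and 28.6 in control pools 1 to 4, 72.5, 69.7, 70.0 and 63.4 in KO, and 77.1, 70.3, 134 and 40.5 in anti-Ly6G. The groups overlapped in every comparison, and control spanned 2.76-fold while the KO pools lay close together. The coefficient of variation was 44.1% in control, 5.62% in KO pools and 48.5% in anti-Ly6G. The log2 difference was 0.57 (95% interval -0.11 to 1.25) in KO against control, with a limma adjusted p of 0.349. In anti-Ly6G against control it was 0.67 (-0.01 to 1.35, adjusted p = 0.125). It passed in 2 of the 8 fits that left out a pool, at 0.92 without control 3 (adjusted p = 0.0401) and 0.95 without anti-Ly6G 4 (0.0250). It was 0.38 without anti-Ly6G 3 (0.334) and 0.44 without control 4 (0.317). With the mitochondria label as a covariate it was 0.76 and did not pass (0.411). Both 95% intervals include no change as well as a more than doubled level, so the data do not show Cyp7a1 to be alike in the groups.

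Cyp8b1 (ENSMUSG00000050445, chromosome 9, 121914356 to 121916305, minus strand), the 12α-hydroxylase of cholic acid synthesis, differed between KO and anti-Ly6G. It stood at 747, 583, 629 and 476 in control, 828, 742, 834 and 728 in KO, and 404, 423, 615 and 429 in anti-Ly6G. Every KO pool was above every anti-Ly6G pool, and control overlapped both. KO exceeded anti-Ly6G by 0.76 ± 0.14 (log2, SE; limma adjusted p = 0.00201), and by 0.76 again among the pools labelled NZB alone (KO 3 and 4 against anti-Ly6G 1 to 4, adjusted p = 0.0236). Against control KO was at 0.38 (adjusted p = 0.183) and anti-Ly6G at -0.38 (0.0593), neither past the threshold. The latter was past it in 2 of the 8 fits that left out a pool, at -0.52 without anti-Ly6G 3 (0.00806) and -0.49 without control 4 (0.0197). In the other such fits its adjusted p reached 0.167. It passed in DESeq2 (-0.38, 0.0351), and did not pass with the mitochondria label as a covariate (-0.37, 0.367). Cyp8b1 is shown with its promoter, since among the 7 synthesis genes of the 10 it had the largest difference between KO and anti-Ly6G. The 150 bases before its start (RefSeq, GRCm38.p6, chr9:121916306-121916455, minus strand) have a TATA box in capitals at -31 from the start.
Cyp8b1: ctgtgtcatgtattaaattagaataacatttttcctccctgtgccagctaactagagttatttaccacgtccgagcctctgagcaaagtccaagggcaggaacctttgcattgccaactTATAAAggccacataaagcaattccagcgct
Of all 32851 RefSeq promoter windows of that length, 7.57% hold TATAAA on either strand.

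Nr0b2 (SHP) was set beside both genes after their values were seen. Control 4 had the lowest control signal of both genes and the highest of Nr0b2, which encodes a repressor of both genes induced by bile acids. Nr0b2 was at 7.94, 13.9, 9.68 and 23.5 in control 1 to 4. Anti-Ly6G 3 had the highest signal of both genes in its group and the lowest of Nr0b2, which was at 10.9, 11.2, 3.62 and 8.08 in anti-Ly6G 1 to 4. For Cyp8b1 all control pools stood in the opposite order to Nr0b2, and control 1 had the highest Cyp8b1 and the lowest Nr0b2. In anti-Ly6G the highest Nr0b2 was in pool 2 and the lowest Cyp8b1 in pool 1. Cyp7a1 did not follow this order in other pools. Anti-Ly6G 4 had the lowest Cyp7a1 of its group without the highest Nr0b2, and control 3 the highest Cyp7a1 without the lowest Nr0b2. In KO 1 to 4 Nr0b2 was at 8.38, 9.92, 10.7 and 8.08. There the order was the opposite: KO 3 had the highest Nr0b2 and Cyp8b1, and KO 4 the lowest Nr0b2, Cyp7a1 and Cyp8b1. No relation was tested. The ratio of Cyp8b1 to Cyp7a1 signal within a library was 7.97 to 16.6 in control, 10.7 to 11.9 in KO and 4.60 to 10.6 in anti-Ly6G, and all KO pools were above all anti-Ly6G pools in this ratio.

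Cyp27a1 (ENSMUSG00000026170, chromosome 1, 74713574 to 74737892, plus strand), the mitochondrial sterol 27-hydroxylase that opens the acidic pathway, was lower in anti-Ly6G. Its signal was 234, 201, 226 and 192 in control, 206, 189, 176 and 197 in KO, and 150.4, 160.0, 117 and 184 in anti-Ly6G. All anti-Ly6G pools lay below all control pools, and KO overlapped both groups. The log2 difference of anti-Ly6G against control was -0.49 ± 0.12 (SE; limma adjusted p = 0.00672). With the mitochondria label as a covariate it was -0.41 and not past the threshold (0.223). That fit takes the label difference from KO 1 and 2 against KO 3 and 4 alone, and assumes it to be the same in the other groups. KO did not pass against control (-0.15, adjusted p = 0.514). KO passed against anti-Ly6G at 0.34 (adjusted p = 0.0436), but not in edgeR on the recovered reads (0.33, 0.0546), nor within the NZB label (0.30, 0.245), nor without any 1 of KO 1, KO 2, KO 4 or anti-Ly6G 1, 2 and 3 (0.22 to 0.37).

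Cyp7b1 (ENSMUSG00000039519, chromosome 3, 18071950 to 18243338, minus strand), the oxysterol 7α-hydroxylase that follows CYP27A1, moved the other way. It measured 39.1, 40.4, 34.4 and 40.4 in control, 50.8, 42.5, 36.8 and 36.1 in KO, and 46.8, 60.7, 53.2 and 44.4 in anti-Ly6G. The anti-Ly6G pools were all above the control pools, and among the KO pools the pair labelled C57 was above the pair labelled NZB. Anti-Ly6G exceeded control by 0.40 ± 0.12 (log2, SE; limma adjusted p = 0.0214), or 0.74 with the label as a covariate (0.0246). The call ended without control 3 (0.35, 0.0628) or without anti-Ly6G 2 (0.31, 0.0681). KO differed from control by 0.10 (adjusted p = 0.704, and by -0.0049 without KO 1). KO was at -0.30 against anti-Ly6G (0.0719), and within the NZB label at -0.48, which passed (0.0456). As a ratio within each library, Cyp7b1 to Cyp27a1 was 0.152 to 0.210 in control, 0.184 to 0.247 in KO and 0.241 to 0.455 in anti-Ly6G.

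The enzymes that change the steroid ring in both pathways moved in opposite directions. Hsd3b7 (ENSMUSG00000042289, chromosome 7, 127800604 to 127803802, plus strand), the C27 3β-hydroxysteroid dehydrogenase, had signals of 391, 393, 356 and 330.1 in control, 466, 486, 429 and 426 in KO, and 463, 511, 421 and 440.2 in anti-Ly6G. Both other groups lay wholly above control. Hsd3b7 rose by 0.32 ± 0.08 (log2, SE) in anti-Ly6G (limma adjusted p = 0.0110), and by 0.47 with the label as a covariate (0.0498). In KO the difference was 0.30 (95% interval 0.12 to 0.48), which did not pass in limma (adjusted p = 0.0873) and passed in DESeq2 (0.0177). KO and anti-Ly6G were at 452 ± 29.0 and 459 ± 38.8, a log2 difference of -0.02 (95% interval -0.20 to 0.16, adjusted p = 0.876) that changed sign with upper quartile scaling (0.0074).

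Akr1d1 (ENSMUSG00000038641, chromosome 6, 37530173 to 37568815, plus strand), the Δ4-3-oxosteroid 5β-reductase that gives bile acids their bent ring, read 124, 129, 135 and 122 in control, 113, 92.1, 78.0 and 80.7 in KO, and 103, 111, 80.1 and 94.3 in anti-Ly6G. Control lay wholly above both other groups. It fell by 0.40 on the log2 scale in anti-Ly6G (SE 0.12, limma adjusted p = 0.0193), a call that ended without control 3 (-0.38, 0.0504), without anti-Ly6G 3 (-0.31, 0.0512) and with the label as a covariate (-0.04, 0.894). In KO the difference was larger in size, -0.50 ± 0.12, and did not pass (adjusted p = 0.0574), while it passed without KO 1 (-0.61, 0.0342) and in DESeq2 (0.00788). Among the C57 pools alone (KO 1 and 2 against control 1 to 4) it was -0.32 (0.139). The ratio of Hsd3b7 to Akr1d1 was 2.64 to 3.15 in control, 4.13 to 5.50 in KO and 4.52 to 5.26 in anti-Ly6G, with no overlap between control and either other group. This ratio and those of the other pairs were chosen after the values were seen and were not tested.

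Baat (ENSMUSG00000039653, chromosome 4, 49489422 to 49506557, minus strand), the enzyme that conjugates bile acids, had the smallest differences of the 10 genes in the comparisons with control. Its signal was 164, 162, 180.4 and 149 in control, 174, 169, 152 and 158 in KO, and 161, 169, 116 and 152 in anti-Ly6G. The groups overlapped throughout, with anti-Ly6G 3 lowest. The log2 difference was -0.01 (95% interval -0.23 to 0.22) in KO, -0.14 (-0.37 to 0.08) in anti-Ly6G, and 0.14 (-0.09 to 0.36) between KO and anti-Ly6G, with limma adjusted p of 0.984, 0.319 and 0.350. The intervals against control reach no further than 0.37 in size.

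**Figure D2:**
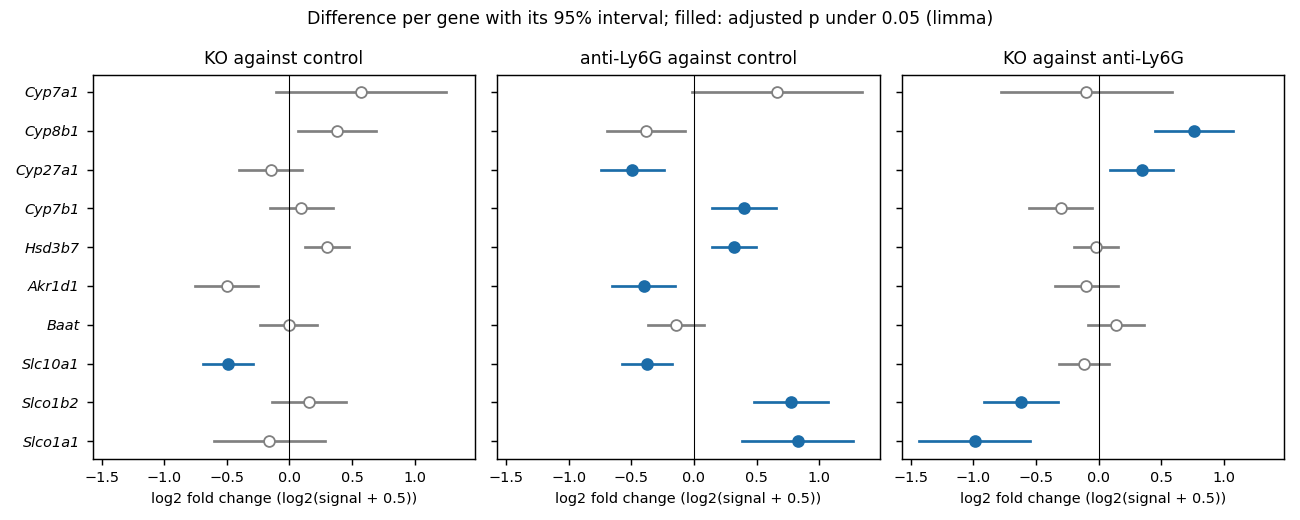
Log2 fold change of each gene (x axis, log2(signal + 0.5) scale) with its 95% interval from the limma fit, in the 3 comparisons. Filled blue points passed an adjusted p of 0.05: Slc10a1 in KO against control, 7 genes in anti-Ly6G against control, and Cyp8b1, Cyp27a1, Slco1b2 and Slco1a1 in KO against anti-Ly6G.

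Among the importers of the 10 genes, Slc10a1 fell in both groups while Slco1b2 and Slco1a1 rose in anti-Ly6G. The 150 bases before the start of the 3 genes are shown because the genes moved apart (RefSeq, GRCm38.p6). They lie at chr12:80968706-80968855, minus strand (Slc10a1, the first of its 2 starts), chr6:141629368-141629517, plus strand (Slco1b2), and chr6:141946963-141947112, minus strand (Slco1a1). Capitals mark matches on either strand. The nuclear receptor motif was searched as AGGTCA. For HNF1 the letters were GTTAAT. The STAT motif was read as TTCNNNGAA. The TATA box was as above, and the E-box, CACGTG, had no match in the windows printed.
Slc10a1: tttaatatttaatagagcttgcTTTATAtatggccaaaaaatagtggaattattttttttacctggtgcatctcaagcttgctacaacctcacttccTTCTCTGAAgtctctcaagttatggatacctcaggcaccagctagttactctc
Slco1b2: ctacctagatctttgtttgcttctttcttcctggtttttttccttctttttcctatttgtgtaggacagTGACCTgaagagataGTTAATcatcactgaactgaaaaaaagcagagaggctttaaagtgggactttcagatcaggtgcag
Slco1a1: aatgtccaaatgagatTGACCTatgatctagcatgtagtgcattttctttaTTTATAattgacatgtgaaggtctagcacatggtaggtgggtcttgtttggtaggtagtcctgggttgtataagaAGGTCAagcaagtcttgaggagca
The Slc10a1 window had a STAT motif at -53 and a TATA box on the other strand at -128. The window of the other Slc10a1 start (chr12:80968080-80968229, minus strand), not printed here, had a nuclear receptor motif at -87. The Slco1b2 window had a nuclear receptor motif at -81 and an HNF1 motif at -66, and the Slco1a1 window had nuclear receptor motifs at -134 and -24 and a TATA box on the other strand at -99. Of all 32851 windows, 8.58% hold the nuclear receptor motif, 3.71% the HNF1 motif, 4.30% the E-box and 4.09% the STAT motif. These are matches of letters and not binding sites. Of the 10 genes, 7 had a promoter entry, and Cyp7a1, Cyp7b1 and Baat had none.

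Slc10a1 (ENSMUSG00000021135, chromosome 12, 80953183 to 80968705, minus strand) encodes NTCP, the sodium-dependent bile salt importer of the basolateral membrane. It measured 481, 481, 507 and 436 in control, 358, 379.9, 306 and 316 in KO, and 336, 359.6, 349 and 429.8 in anti-Ly6G. Every control pool was above every pool of both other groups, narrowly so for anti-Ly6G 4. It fell by 0.49 on the log2 scale in KO (SE 0.09, limma adjusted p = 0.0323), and 6 of the 8 single pools ended this call when left out (control 1, 2 and 3, KO 1, 3 and 4), with adjusted p of 0.0543 to 0.105 and log2 differences of -0.52 to -0.44. Among the C57 pools alone it was -0.37 (adjusted p = 0.0759). In anti-Ly6G it fell by 0.37 (SE 0.09, adjusted p = 0.00900), with or without any 1 pool, and was -0.13 with the label as a covariate (0.597). KO and anti-Ly6G differed by -0.12 (95% interval -0.32 to 0.09, adjusted p = 0.381).

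Slco1b2 (ENSMUSG00000030236, chromosome 6, 141629518 to 141686646, plus strand) encodes OATP1B2, the hepatocyte carrier of unconjugated bile acids and many drugs in mouse. It read 433, 417, 475 and 412 in control, 533, 506, 406 and 496 in KO, and 789.6, 990.2, 668 and 584 in anti-Ly6G. All anti-Ly6G pools were above all others, while KO and control overlapped. Anti-Ly6G exceeded control by 0.78 ± 0.14 (log2, SE; limma adjusted p = 0.00133), in every fit that left out a pool (0.64 to 0.89), and by 0.99 with the label as a covariate (0.0256). It also exceeded KO, by 0.62 (KO against anti-Ly6G -0.62, adjusted p = 0.00525), and by 0.73 within the NZB label (-0.73, 0.0433). KO against control was 0.16 (95% interval -0.14 to 0.45, adjusted p = 0.577).

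Slco1a1 (ENSMUSG00000041698, chromosome 6, 141907282 to 141946962, minus strand) encodes OATP1A1, a carrier that in mouse liver is higher in males. Its signal was 25.7, 25.6, 23.9 and 28.7 in control, 22.3, 22.6, 21.5 and 26.4 in KO, and 47.7, 81.2, 34.6 and 34.4 in anti-Ly6G. The anti-Ly6G pools were all above the others but spread widely, with a coefficient of variation of 44.6% against 7.60% in control and 9.44% in KO. Anti-Ly6G exceeded control by 0.83 ± 0.21 (log2, SE; limma adjusted p = 0.00901), which held in every fit without a pool and was lowest at 0.56 without anti-Ly6G 2. With the label as a covariate it was 0.74 and did not pass (0.215). KO was below anti-Ly6G by 0.99 (-0.99, adjusted p = 0.00366), and by 0.95 within the NZB label, where it did not pass (-0.95, 0.0754). KO against control was -0.16 (95% interval -0.61 to 0.28, adjusted p = 0.714).

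The importers were also set against each other within each library. The ratio of Slco1b2 to Slc10a1 signal was 0.900, 0.867, 0.937 and 0.944 in control, 1.49, 1.33, 1.33 and 1.57 in KO, and 2.35, 2.75, 1.91 and 1.36 in anti-Ly6G. All 8 pools outside control were above all control pools, while KO and anti-Ly6G overlapped through anti-Ly6G 4. A ratio of signals is not a ratio of molecules, since Slco1b2 has 2.24 times the exon length of Slc10a1.

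**Figure D3:**
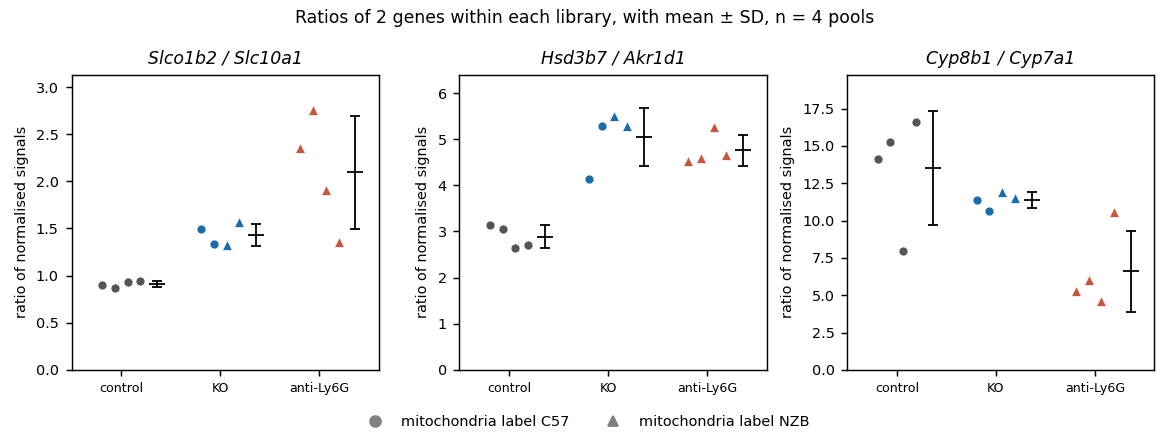
Ratio of the normalised signals of 2 genes within each library (y axis, from 0) in control, KO and anti-Ly6G, with mean ± SD over 4 pools and the mitochondria label as the marker shape. The Slco1b2 to Slc10a1 ratio is 0.867 to 0.944 in control and 1.33 or more in all other pools, and the Hsd3b7 to Akr1d1 ratio is 2.64 to 3.15 in control and 4.13 or more elsewhere.

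Counted over the members, KO against control had 0 higher and 1 lower (Slc10a1), against a background of 1.12% of all genes called, 0.585% higher and 0.534% lower. In 3 members (Hsd3b7, Akr1d1, Slc10a1) the KO and control pools did not overlap, where 12.4% of all genes had no overlap. Anti-Ly6G against control had 4 higher (Cyp7b1, Hsd3b7, Slco1b2, Slco1a1) and 3 lower (Cyp27a1, Akr1d1, Slc10a1), against 30.4% of all genes called, 15.1% higher and 15.3% lower. The same 7 members did not overlap, where the share over all genes was 27.3%. KO against anti-Ly6G had 2 higher (Cyp8b1, Cyp27a1) and 2 lower (Slco1b2, Slco1a1), against 26.8% called, 13.6% higher and 13.1% lower, and 3 members without overlap against 27.3%. The median size of the members' log2 difference was 0.40 in anti-Ly6G against control, where that of all genes was 0.21, and 0.23 against 0.13 in KO. The signed medians were 0.09 and 0.05, since members moved both ways, and both comparisons use the same 4 control pools.

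Within the KO group, 6 members (Cyp7b1, Hsd3b7, Akr1d1, Baat, Slc10a1 and Slco1b2) were higher in both pools labelled C57 than in both labelled NZB, and 0 were lower. Over all genes 26.9% were higher in this way and 27.0% lower. For Slc10a1 the means were 369 and 311, for Akr1d1 102 and 79.4, and for Cyp7b1 46.6 and 36.5. With 2 pools on each side this was not tested.

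Few genes around the pathway passed in KO against control, where 1.12% of all genes passed. None of the 11 measured further enzymes of synthesis and side chain shortening, 7 genes of conjugation and taurine supply, 8 exporters and 15 nuclear receptors and transcription factors passed in KO against control. Of 3 measured receptors, S1pr2, a sphingosine phosphate receptor that also binds conjugated bile acids, rose from 5.61 ± 1.51 to 10.2 ± 1.11 (log2 0.83, limma adjusted p = 0.0323). The call of S1pr2 ended without any 1 of control 1, 2 and 3 or KO 1, 2 and 3.

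In anti-Ly6G the export genes split. Of 8 measured, 3 fell and 1 rose against control, where 15.3% of all genes fell and 15.1% rose. The median log2 difference of the 8 was -0.0047, and that of all genes -0.0022. The falling genes were Abcc3 (244 ± 35.0 to 137 ± 17.8, log2 -0.83, limma adjusted p = 0.000161), Abcc4 (-0.81, 0.00218) and Abcc2 (-0.63, 0.000582), which encode multidrug resistance proteins, the first and second basolateral and the third canalicular. Atp8b1, a lipid flippase of the canalicular membrane, rose (19.7 ± 3.21 to 32.1 ± 3.09, 0.70, 0.000569). Abcb11, the canalicular bile salt pump, did not pass, with 179 ± 28.4 in control, 201 ± 11.4 in KO pools and 205 ± 16.2 in anti-Ly6G. Among the further carriers, Pdzk1, a scaffold protein of membrane transporters, rose (0.99, 1.16e-05). Slco2a1, an OATP gene for a prostaglandin carrier, fell from 35.2 ± 3.30 to 12.1 ± 2.85 (-1.53, 1.13e-05). The OATP genes Slco1a4, at 348 ± 76.3 in control (-0.285, 0.342), and Slco2b1 (-0.289, 0.0653) did not pass.

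Among the 11 further synthesis enzymes, Stard4, a cholesterol carrier between membranes, rose from 20.6 ± 3.82 to 57.4 ± 16.5 in anti-Ly6G (log2 1.43, limma adjusted p = 0.000108). Amacr, a racemase of side chain shortening, fell (-0.29, 0.00772), and the other 9 did not pass. Over all genes 15.1% rose and 15.3% fell in this comparison. Of 7 conjugation and taurine genes, the taurine importer Slc6a6 (-0.50, 0.00158) and Cth, an enzyme of cysteine synthesis (-1.17, 0.00199), fell, and Acnat1, an acyl transferase related to Baat, rose (0.73, 0.00867). Of 15 factors 4 rose and 2 fell, with the oxysterol receptor Nr1h3 (0.50, 5.89e-05), Nr1i3 (CAR, 0.64, 0.00229) and Cebpa (0.43, 0.0151) of lowest p among them. Of 3 receptors Klb, which encodes βKlotho, the partner of the FGF15 receptor, fell (-0.34, 0.00357). Fgfr4, which encodes the FGF15 receptor, rose (0.31, 0.0347, not past the threshold without any 1 of control 1, 2 and 3 or anti-Ly6G 3 and 4). With the label as a covariate, Stard4, Abcc3, Abcc4, Atp8b1, Abcc2, Slco2a1, Pdzk1, Nr1h3 and Cebpa still passed, at adjusted p of 0.00281 to 0.0409. Amacr (0.284), Slc6a6 (0.0665), Cth (0.0608), Acnat1 (0.755), Nr1i3 (0.0889), Klb (0.0880) and Fgfr4 (0.320) did not.

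**Figure D4:**
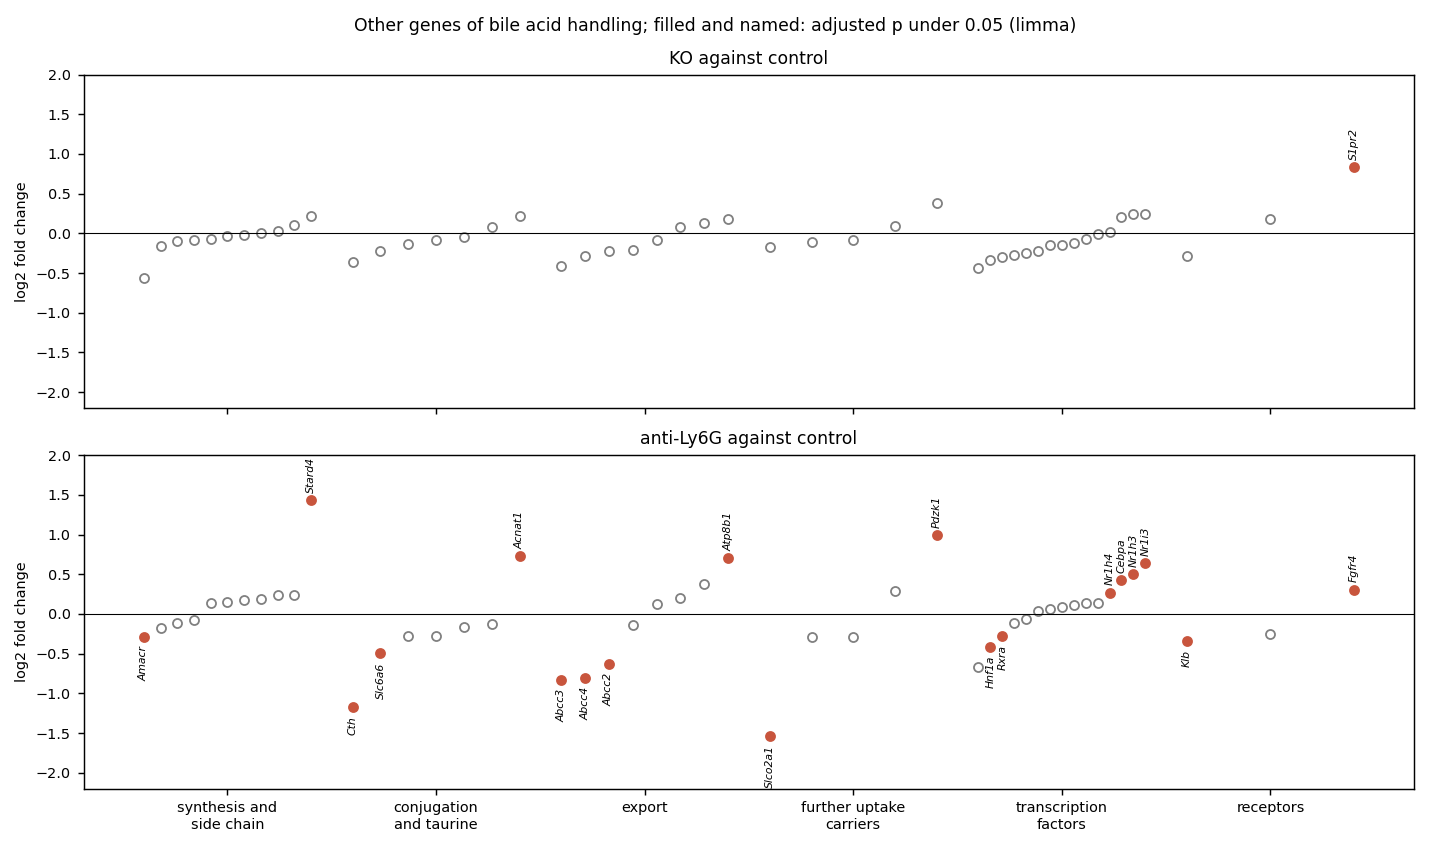
Log2 fold change (y axis, log2(signal + 0.5) scale) of genes of 6 lists of bile acid handling, ordered within each list, in KO against control (top) and anti-Ly6G against control (bottom). Filled and named points passed an adjusted p of 0.05 in limma: S1pr2 alone in KO, and in anti-Ly6G genes of all 6 lists in both directions.

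Markers of other liver cells moved in the same comparison. In anti-Ly6G against control, 4 of 10 macrophage and monocyte, 3 of 4 measured neutrophil, 5 of 8 stellate cell, 2 of 6 endothelial, both measured bile duct and the only measured lymphocyte marker fell, and none of these rose. Over all genes 15.3% fell and 15.1% rose. With the label as a covariate 1 of the 4 macrophage and monocyte markers (Marco) still passed, 2 of the 3 neutrophil (S100a8 and S100a9), 1 of the 5 stellate (Reln), both endothelial (Stab1 and Kdr), 1 bile duct (Sox9) and the lymphocyte marker (Cd79a). The call of Csf3r ended without any 1 of 4 pools, that of Kdr without any 1 of 7, and that of Spp1 without control 4 or anti-Ly6G 4. The summed signal of the stellate markers was 161 to 275 in control, 266 to 342 in KO and 110.0 to 128 in anti-Ly6G. That of the macrophage markers was 332 to 535, 531 to 611 and 240 to 318. Of these, Lyz2, the locus of the Cre, was at 95.2 ± 49.2 in control and 196 ± 51.2 in KO. Clec4f (95.5 ± 13.4 and 96.7 ± 20.8), Csf1r (85.2 ± 18.2 and 94.3 ± 6.60) and Marco (58.8 ± 15.0 and 66.3 ± 14.6) differed less. The sum of the bile duct markers was 40.9 to 62.9, 58.0 to 81.6 and 25.9 to 37.6. Most of it was Spp1, at 41.1 ± 9.66 in control and 61.2 ± 12.9 in KO. Sox9 was at 9.49 ± 1.16 and 8.26 ± 1.57. For neutrophil markers the ranges were 12.5 to 21.4, 17.4 to 20.9 and 6.30 to 10.7, and Ly6g and Mpo are not among the genes of the table. For endothelial markers they were 186 to 215, 124 to 211 and 156 to 174. In KO against control none of these markers passed, where 1.12% of all genes did. The part of the markers in the members' differences was not tested.

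Liver programmes that bear on these genes were also measured. Cyp7a1 follows a daily rhythm in mouse liver, and of 16 clock genes 4 fell in KO against control, where 0.534% of all genes fell. Ciart fell from 22.6 ± 8.79 to 3.50 ± 1.87 (log2 -2.57, limma adjusted p = 0.0115), Nr1d2 by 0.50 (-0.50, 0.0123) and Per3 from 20.2 ± 6.11 to 5.97 ± 2.39 (-1.71, 0.0193). None of these 3 calls held without control 2, and Per3 also did not pass without KO 3 or with the label as a covariate (0.0664). In anti-Ly6G 6 of the 16 fell, where 15.3% of all genes fell, Nr1d1 (-1.08, 0.000690), Bhlhe41 (-1.54, 0.00221) and Ciart (-1.73, 0.00353) with the lowest p, none of them past the threshold with the covariate (0.0642 to 0.426). Nr1d2 rose (0.25, 0.0229), which did not hold without control 3, without anti-Ly6G 2 or with the covariate. The labels used here give no hour of collection, and the part of the clock was not tested.

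Slco1a1 and Cyp7b1 are male-biased genes of mouse liver. In anti-Ly6G against control 3 of 9 other male-biased genes rose, where 15.1% of all genes rose and 30.4% passed in either direction, and the median of the 9 was 0.04. They were Selenbp2 (log2 2.10, limma adjusted p = 0.000456), Cyp4a12a (2.63, 0.00107) and C8a (0.76, 0.0124). Selenbp2 and Cyp4a12a have close paralogs and are uncertain. Of 6 female-biased genes 1 fell, Cux2 (-1.74, 0.00430), where 15.3% of all genes fell. In KO against control no gene of either list passed, where 1.12% of all genes did. Cyp7a1 is mainly expressed near the central vein of the liver lobule. Of 10 periportal genes 3 fell in anti-Ly6G (median -0.34), Hal (-1.07, 2.45e-05), Gls2 (-0.53, 0.00318) and Cps1 (-0.79, 0.00668), and Cyp2f2 rose (0.37, 0.0254, not past the threshold without any 1 of control 2, control 3 or anti-Ly6G 4). Of 10 pericentral genes Lgr5 rose (0.81, 0.0149; median of the list 0.10). With the label as a covariate, Cyp4a12a (0.220), Cux2 (0.0622), Gls2 (0.388) and Lgr5 (0.152) did not pass. Their relation to the members was not tested.

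Likeness was measured as the root mean square difference of centred log2 signals over the 12 libraries, where 0 is an identical pattern. The genes most like Slco1a1 were Slco1b2 (0.250), mt-Rnr2 (0.259) and Gm14296 (0.259). Cyp7b1 was followed most closely by Rpe (0.0889), Nsmce1 (0.108) and Nat9 (0.109). For Cyp7a1 the nearest genes, Gm20634 (0.312), Vsig10 (0.332) and Cyp2c38 (0.351), were farther away. The 12 libraries fall into groups, so these values describe a shared pattern over groups and pools and carry no test.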

How the data were processed

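Per the labels' protocols, an Illumina Genome Analyzer IIx read RNA from 12 liver pools. GRCm38, Bowtie2 2.0.6, RSEM 1.2.3, cutadapt 1.2.1 and edgeR are listed, per the submitters' processing notes, with no roles. The deposited normalised signal of 11791 genes was made by the authors. For annotation, strand setting and filter the entry is: not given in the sources used here. All values were whole multiples, within 0.01, of the signal of 1 read (100% of values), and these multiples were taken as reads. A stricter test of low values passed in 4 of 12 columns. A signal of 3 reads was 0.125 to 0.242. Such floors cover counting error only.

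Tests were limma-trend (limma 3.58.1, R 4.3.3) on log2(signal + 0.5), all 12 libraries, group as the only term, Benjamini-Hochberg adjustment over all genes and a threshold of 0.05. The scale understates changes of low genes. The written design named edgeR for counts and limma for normalised values, so edgeR 4.0.16 and DESeq2 1.42.0 on the recovered reads were alternatives. A filter for a mean of 1 in any group removed 0 genes. Other alternatives were pseudocounts, upper quartile scaling, 2-group fits, the mitochondria label, the replicate number and leaving out each pool. Coordinates and 25-base words came from GENCODE vM21, in which 11665 IDs were found. The protocol gives more males per genotype than the pools hold. P-values set each group difference against the spread between pools, not between single animals. The members and lists were chosen with earlier results of these data known. Named genes were all members, at most 3 called genes of lowest p per list and comparison, and the 3 genes most like Cyp7a1, Cyp7b1 and Slco1a1. Nr0b2, Abcb11, Abcc4, Cyp2f2, Slco1a4 and Slco2b1 are named beyond that rule, after their values were seen. The result of 1 gene of the carrier list is not reported here.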

Additional observations from a re-analysis of the deposited data

Results flagged for a closer look

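Of 30 groups of 4 pools (10 genes in 3 groups), 1 held a pool far from the other 3. Cyp8b1 in anti-Ly6G 3 was at 615.1, where the other anti-Ly6G pools were at 404, 423 and 429. Its gap to the nearest pool was 0.884 of the group's range, above Dixon's 95% critical value for 4 samples, which chance passes in about 1 in 20 groups.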

How the results depend on the processing

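In KO against control, the 132 genes called became 577 in DESeq2, 79 with the mitochondria label as a covariate and 20 with the replicate block, and 3 to 319 when a pool was left out (3 without control 2). The 1 member called became 3 in DESeq2, 0 with the covariate, 0 within the C57 label and 0 with the replicate block, and 0 or 1 when a pool was left out. Upper quartile scaling called 141, of which 125 were among the 132, with 60.3% higher, against 52.3%. In anti-Ly6G against control, the 3580 genes became 973 and the 7 members 3 with the covariate, and the members 6 to 8 when a pool was left out. In KO against anti-Ly6G, 3157 genes became 1555 within the NZB label, and members were 3 to 5 when a pool was left out. The causes were not tested. Same-numbered pools of KO and control deviated together by correlations of 0.129, 0.0812, 0.119 and 0.0109, and in the other comparisons from -0.209 to 0.172, so the numbers were not taken to pair the pools. The replicate block gave 9 members in anti-Ly6G against control (adding Cyp7a1 at 0.67 and Cyp8b1 at -0.38) and 3 in KO against anti-Ly6G. Pseudocounts of 0.1 or 1 and no filter changed no member's call.

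Changes of sign were all in differences that passed under no setting. Cyp7a1 in KO against anti-Ly6G was 0.19 without anti-Ly6G 3, and Cyp7b1 in KO against control was -0.0049 without KO 1 (up to 0.16 without KO 4). Hsd3b7 in KO against anti-Ly6G was 0.0074 with upper quartile scaling, and 0.0032, 0.0063 and 0.032 without KO 3, KO 4 and anti-Ly6G 2 (lowest -0.061 without anti-Ly6G 3). Baat in KO against control was 0.017 with upper quartile scaling, 0.068 with the covariate and within the C57 label, and 0.042, 0.029 and 0.0094 without control 3, KO 3 and KO 4 (lowest -0.049 without control 4). In anti-Ly6G against control Baat was 0.0022 with the covariate.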
